A study of Mus musculus with 2 samples.

Results

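The 8 genes Retnla, Arg1, Mrc1, Chil3, Clec10a, Mgl2, Pltp and Ear2 were described in CD45+ cells of mouse visceral adipose tissue (VAT). They were chosen by name, as genes linked to alternative activation of macrophages, with earlier results of these data known. All 8 of them were found among the 26981 genes listed in either of the 2 libraries. The NW library came from wild-type C57BL/6 mice given normal water, and the ABX library from wild-type C57BL/6 mice given antibiotics; both tissues were labelled eWAT and taken at 15 weeks of age. The leukocytes were enriched on CD45 magnetic beads and captured on BD Rhapsody microwells, where each mRNA molecule receives a unique molecular identifier (UMI). Each condition was 1 library, the number of mice behind it was not given in the sources used here, and the specific antibiotics were not named in the labels of these samples, so differences between NW and ABX have no replicate check and no test was made. Intervals below cover counting error only.

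Alternative activation is the state that interleukin 4 and interleukin 13 induce in macrophages through the receptor chain IL-4Rα and the transcription factor STAT6. In the mouse it is read from a secreted resistin-like protein (Retnla), an enzyme that splits arginine (Arg1), a chitinase-like lectin (Chil3, also called Ym1), and the surface lectins CD206 (Mrc1), CD301a (Clec10a) and CD301b (Mgl2). Pltp encodes the phospholipid transfer protein, a plasma lipid carrier and known target of the liver X receptors, and Ear2 a ribonuclease of the eosinophil-associated family. Resident macrophages of lean fat are known to carry several of these genes, and group 2 innate lymphoid cells (ILC2) are known as a source of the inducing cytokines and of arginase 1.

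In GRCm38 with the GENCODE M21 annotation, Retnla lies on chromosome 16 from 48842551 to 48844461 (+), Arg1 on chromosome 10 from 24915221 to 24927484 (−), Mrc1 on chromosome 2 from 14229392 to 14332057 (+) and Chil3 on chromosome 3 from 106147554 to 106167564 (−). Clec10a spans 70156197 to 70170834 and Mgl2 70130329 to 70137550 on chromosome 11, both on the + strand and with 18646 bases between them. Pltp lies on chromosome 2 from 164839518 to 164857711 (−) and Ear2 on chromosome 14 from 44102654 to 44103534 (+). Because reads of close relatives can be split in counting, runs of 100 bases shared with other annotated transcripts were counted. Retnla, Arg1, Mrc1 and Pltp shared none, Clec10a shared 2.64% of its runs with Mgl2, Chil3 shared 4.93%, mostly with Chil4, and Ear2 shared 13.9%, mostly with Ear10, so by shared sequence the Ear2 value is the least certain of the 8.

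The 250 bases before the RefSeq start of Retnla and of Chil3 are shown because these genes had the most UMIs per cell and the largest ratio between libraries in macrophages, and because the windows hold a match to a STAT-type motif, in capitals. The sequences are RefSeq's for GRCm38.p6, 5′ to 3′ on the strand of the gene, Retnla at chr16:48842359-48842608 (+) and Chil3 at chr3:106167565-106167814 (−).
Retnla: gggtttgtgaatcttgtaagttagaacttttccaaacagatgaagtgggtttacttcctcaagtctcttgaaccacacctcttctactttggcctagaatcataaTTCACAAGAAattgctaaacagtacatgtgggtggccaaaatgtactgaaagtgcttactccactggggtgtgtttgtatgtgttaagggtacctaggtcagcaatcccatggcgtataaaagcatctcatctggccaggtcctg
Chil3: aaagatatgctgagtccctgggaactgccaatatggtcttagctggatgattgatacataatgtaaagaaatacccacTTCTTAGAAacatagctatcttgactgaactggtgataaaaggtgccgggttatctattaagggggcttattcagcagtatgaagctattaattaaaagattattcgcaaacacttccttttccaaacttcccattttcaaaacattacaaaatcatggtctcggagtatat
Windows of 300 bases, from 250 before to 50 after the start, were searched on both strands for TTC and GAA with any 4 bases between them, the spacing STAT6 is known to prefer, and for TTC and GAA with any 3 bases between them. The RefSeq start of Retnla, at 48842609, lies 58 bases after the GENCODE start given above, so the last 58 bases shown lie within the GENCODE gene; for Chil3 both starts are the same base. Of 6 members with a window (Retnla, Mrc1, Chil3, Mgl2, Pltp and Ear2), Retnla had the first motif, its first base 145 bases before the RefSeq start and 87 before the GENCODE start, and Chil3 the second, 172 bases before it, and the other 4 had neither. Over all 32851 windows, 6.95% held the first motif and 8.30% the second, so a single match is a description of these letters and no more.

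After cells with fewer than 500 UMIs, fewer than 200 genes or more than 25% mitochondrial UMIs were left out, 12474 NW and 12724 ABX cells remained, with median depths of 5092 and 3845.5 UMIs per cell. ABX was the shallower library, and 196 cell barcodes occurred in both. Cells were clustered without the 8 genes, and clusters were named from other markers. Macrophage-like cells (5793 in NW and 5023 in ABX) carried C1qa in 95.3% and 92.9% of cells, against 26.5% of other cells. ILC2-like cells (752 and 1244) carried Il1rl1 in 96.3% and 95.9%. Dendritic cells (DC, 1661 and 1190) were cDC1-like, cDC2-like and mature DC-like. The monocyte-like cluster (882 and 712) was led by Fn1, Lyz1 and Lpl and met only 3 of the 13 monocyte markers: Ly6c2 was found in 8.28% and 10.1% of its cells, no higher than the 14.5% of other cells, so the name is weak, and its 3 largest parts at a finer resolution are described separately below.

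Levels are given in CPM, the UMIs of a gene summed over the cells of a class and scaled to the UMIs of all genes there, so that 10000 CPM are 1% of the UMIs. B-like cells, which are not known to express these genes, served as a reference for free RNA. Retnla was found in 77.7% of B-like cells in NW and 47.8% in ABX, at 826 and 476 CPM, with median depths of 4100 and 3900 UMIs. Pltp stood at 248 and 148 CPM in them, Mrc1 at 147 and 104 CPM, Clec10a at 94.8 and 86.7 CPM, and Mgl2 at 86.9 and 56.4 CPM. Arg1, Chil3 and Ear2 stayed at or under 3.01 CPM in B-like cells of either library. Part of this reference came from few cells: without the 4 NW and 9 ABX B-like cells richest in Retnla, 1% of each library's, 728 of the 1464 and 1031 of the 2060 Retnla UMIs remained, at 425 and 243 CPM. Whether these were doublets was not tested. Levels of another class near these values were read as background, with the richest 1% of cells of both classes left out as a second reading.

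**Figure D1:**
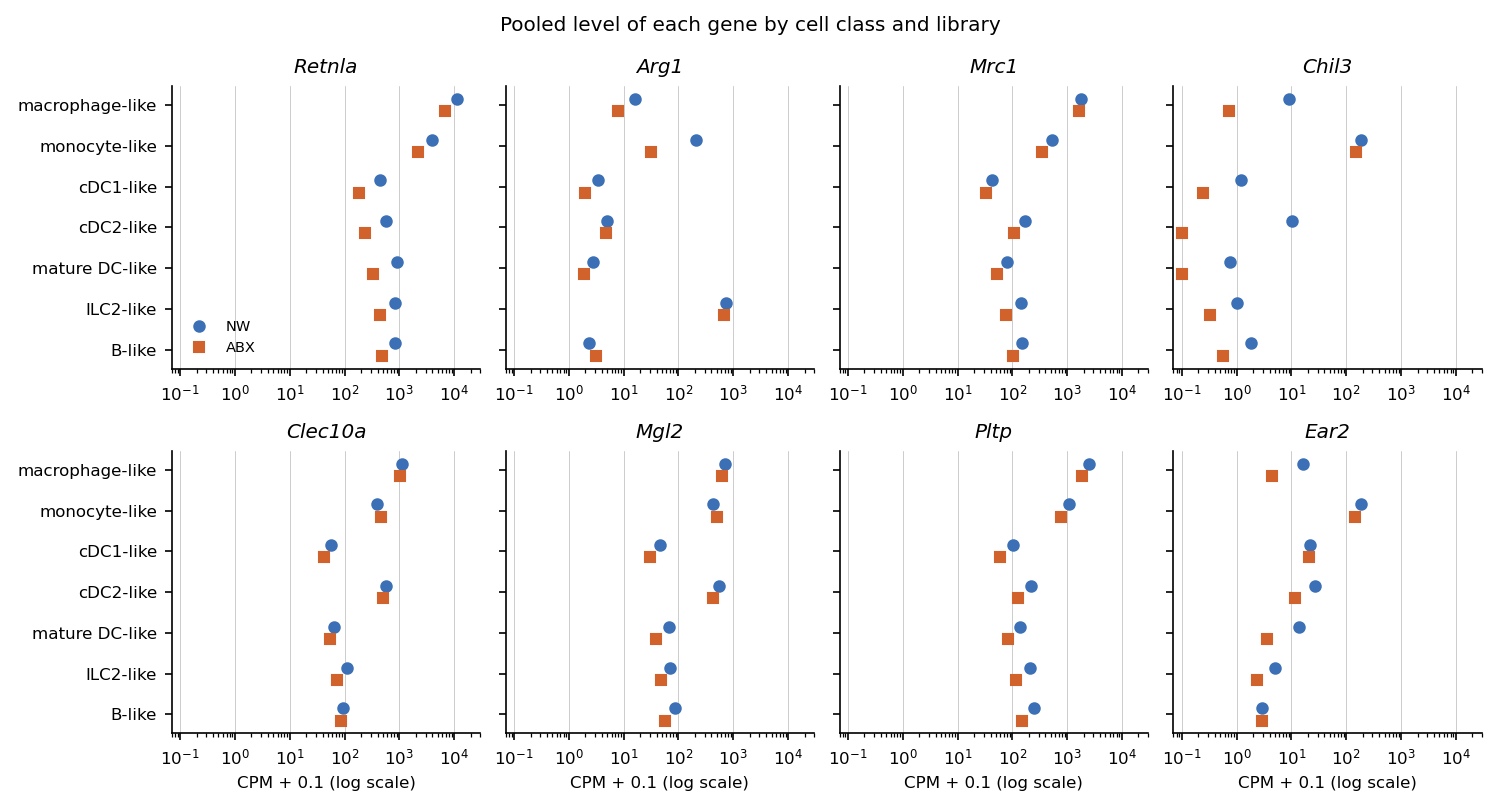
Pooled CPM plus 0.1 (log axis) of each gene in 7 cell classes, NW as circles and ABX as squares, 1 library each. Of the classes drawn, Retnla, Mrc1, Pltp, Clec10a and Mgl2 are highest in macrophage-like cells, Arg1 in ILC2-like cells, and Chil3 and Ear2 in monocyte-like cells. The B-like row shows the free RNA reference, pooled over all B-like cells.

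Levels across the macrophage-like, monocyte-like, DC-like and ILC2-like classes divided the 8 genes into 3 patterns that were alike in both libraries. Macrophage-like cells had the highest level of 5 genes (Retnla, Mrc1, Clec10a, Mgl2 and Pltp) in NW and in ABX. They were 46.4% of the NW and 39.5% of the ABX cells and held 88.4% and 86.3% of all Retnla UMIs, 88.4% and 86.2% of Mrc1, and 86.2% and 82.2% of Pltp. For Clec10a these shares were 83.8% and 79.9%, and for Mgl2 78.9% and 75.8%. Arg1 had its highest level in ILC2-like cells, which held 53.4% of its UMIs in NW and 82.6% in ABX while making up 6.03% and 9.78% of cells. Chil3 and Ear2 had theirs in the monocyte-like cluster, with 65.8% and 63.2% of the Chil3 UMIs and 41.5% and 47.2% of the Ear2 UMIs. Among all named classes Chil3 was higher still in ABX neutrophil-like cells, at 440 CPM against 151 CPM in monocyte-like cells, and in NW the values were 152 and 182 CPM, from 43 and 20 UMIs in 54 ABX and 61 NW neutrophil-like cells.

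**Figure D2:**
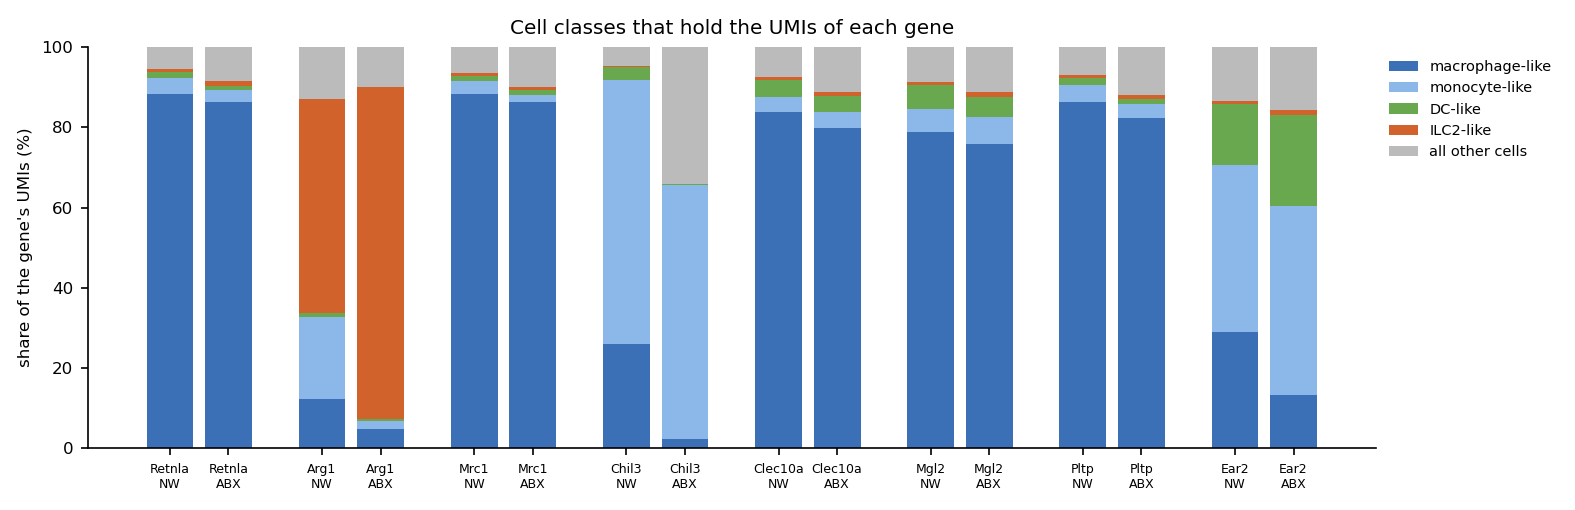
Share of each gene's UMIs (%) held by macrophage-like, monocyte-like, DC-like, ILC2-like and all other cells, 1 stacked bar per gene and library. Arg1 UMIs lie mostly in ILC2-like cells, 53.4% in NW and 82.6% in ABX, while macrophage-like cells hold 12.4% and 4.71% of them.

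In macrophage-like cells Retnla ranked 4 among all genes by UMIs in NW and 9 in ABX, each UMI counting 1 molecule whatever its length. Its level was 11100 CPM in NW and 6710 CPM in ABX, a log2 ratio of ABX to NW of −0.72 (95% interval −0.73 to −0.71), or 1.65-fold lower in ABX. Cells with a Retnla UMI made up 92.8% (exact binomial interval 92.1 to 93.5) in NW and 72.8% (71.5 to 74.0) in ABX, and after thinning to 1000 UMIs, with the 93 NW and 140 ABX cells of lower depth left out, the shares were 71.9% and 52.7%. ABX was thus lower both in level and in share at matched depth. The same was seen in B-like cells, the reference for free RNA. Their share after thinning was 34.6% in NW and 17.2% in ABX, and their log2 ratio was −0.79. How much of the difference in share came from free RNA was not tested.

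The secreted factor was far from uniform among macrophages. Retnla per cell was spread over 2 humps: the lower one lay where B-like cells lay, and the upper one had its peak above 10000 CPM. Between the humps the bins with fewest cells ended at 3162 CPM in NW (137 cells) and 1778 CPM in ABX (111 cells). A limit of 10000 CPM therefore cuts through the upper hump and does not give its size. Cells above 10000 CPM made up 33.1% (31.9 to 34.4) of macrophage-like cells in NW and 20.3% (19.2 to 21.5) in ABX, against 0.286% and 0.856% of B-like cells. This limit was set after the values were seen, and 1428 NW and 946 ABX cells lay between 5000 and 20000 CPM. Within the cells above the limit, pooled Retnla was 24400 CPM in NW and 23000 CPM in ABX, and in the remaining macrophage-like cells 2210 and 1470 CPM. Since Retnla itself set the limit, these levels are a description of the cells on each side of it. The median macrophage had 2690 CPM in NW and 553 CPM in ABX, and the 90th percentile was 28200 and 19800 CPM.

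**Figure D3:**
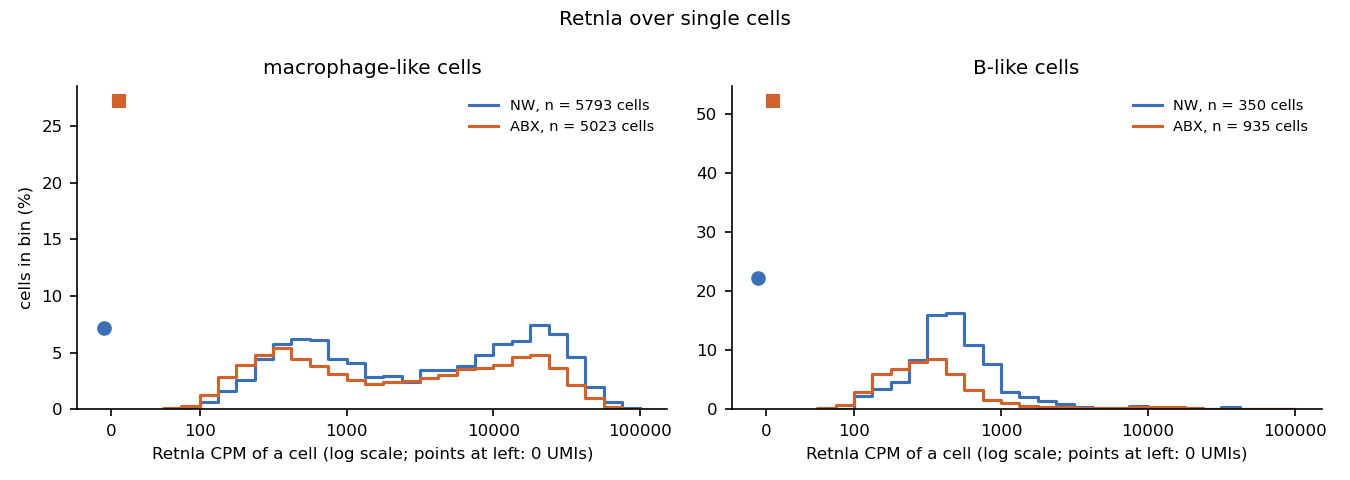
Distribution of Retnla CPM over single cells (log axis, share of cells per bin in %) in macrophage-like and B-like cells, lines for NW and ABX and points at the left for cells with 0 UMIs. Macrophage-like cells show a lower hump in the range of B-like cells and an upper hump with its peak above 10000 CPM. Cells above 10000 CPM, a limit that cuts through the upper hump, are 33.1% of NW and 20.3% of ABX macrophage-like cells.

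The surface lectins differed little. Mrc1, the mannose receptor, stood at 1820 CPM in NW and 1630 CPM in ABX, a log2 ratio of −0.16 (−0.18 to −0.14). Clec10a stood at 1110 and 1040 CPM, with a log2 ratio of −0.10 (−0.12 to −0.08), and its neighbour Mgl2 at 716 and 622 CPM, with −0.20 (−0.23 to −0.17). All 3 lectins were nearer to 0 than the 1.5-fold limit (0.58 on the log2 scale). The lipid carrier Pltp stood at 2550 and 1850 CPM, a log2 ratio of −0.46 (−0.48 to −0.45), or 1.38-fold lower in ABX, which also stayed short of 1.5-fold.

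The 3 scarce genes had larger ratios that rested on few cells. Arg1 stood at 16.0 CPM in NW and 7.74 CPM in ABX, a log2 ratio of −1.04 (−1.30 to −0.80), from 572 and 176 UMIs. Its UMIs were found in 2.30% and 1.89% of macrophage-like cells, and in 0.549% and 0.539% after thinning, so the share of cells was nearly equal. Without the 10 cells richest in Arg1 in each library, 157 NW and 99 ABX UMIs remained and the log2 ratio was −0.01.

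Chil3 stood at 8.87 CPM in NW and 0.616 CPM in ABX, a log2 ratio of −3.85 (−4.74 to −3.08), from 318 and 14 UMIs. A single NW cell held 204 of the 318 Chil3 UMIs, and without the 10 richest cells 41 UMIs remained in NW. In ABX 0 remained, which was fixed in advance because only 9 ABX cells had a Chil3 UMI. Ear2 stood at 16.3 and 4.31 CPM, a log2 ratio of −1.92 (−2.24 to −1.60), from 583 and 98 UMIs, of which 1 NW cell held 148. Without the 10 richest cells the Ear2 log2 ratio was −1.08.

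Of the 8 genes, 4 (Retnla, Arg1, Chil3 and Ear2) were at least 1.5-fold lower in ABX macrophage-like cells and 0 higher. Of all 10171 genes with at least 200 UMIs in these cells, 1.12% were that much lower and 2.86% that much higher, and the median log2 ratio was 0.01, against −0.59 over the 8 genes. Without the 10 richest cells of each gene and library the count was 2 of 8 (Retnla and Ear2), since Arg1 came within the limit and Chil3 gave no ratio. Only 9 ABX cells had a Chil3 UMI, so 0 had to remain there, against 41 UMIs in NW, and this reading cannot judge Chil3. Median depth (5710 and 4100 UMIs) and the median mitochondrial share (6.54% and 8.08%) moved with the library, and summed B cell markers in macrophage-like cells were 708 and 1400 CPM; their part in the ratios was not tested.

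**Figure D4:**
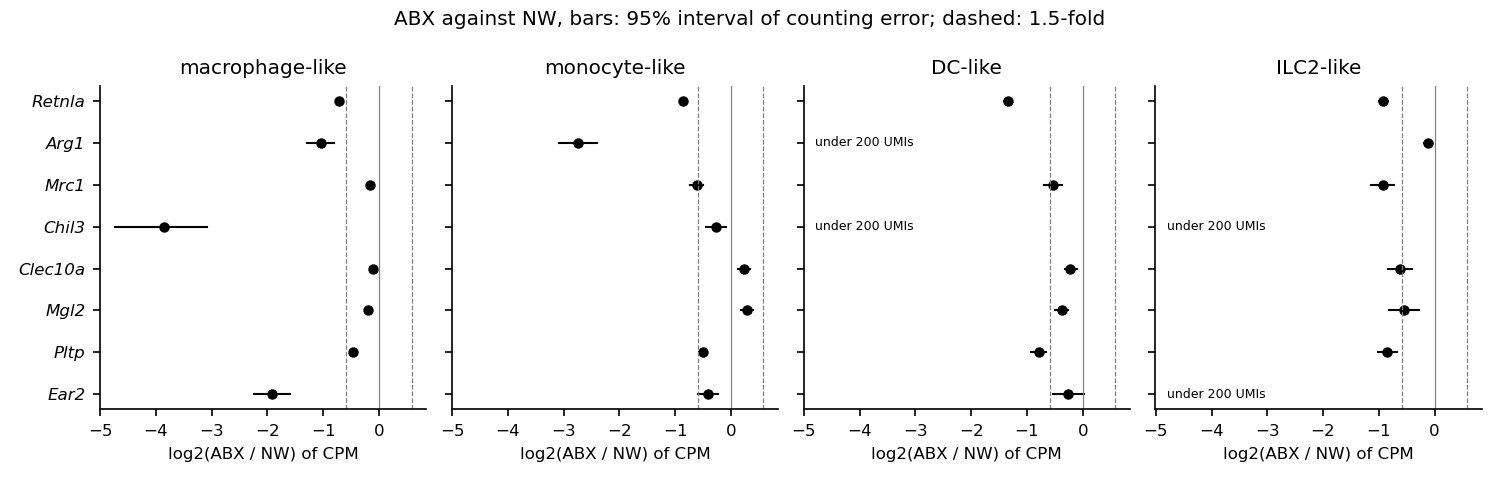
Log2 ratio of ABX to NW of pooled CPM for each gene in 4 cell classes, with 95% intervals of counting error as bars and 1.5-fold as dashed lines; genes with under 200 UMIs are named as such. In macrophage-like cells Mrc1, Clec10a and Mgl2 lie between −0.20 and −0.10, Retnla at −0.72 and Chil3 at −3.85.

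Macrophage-like cells comprised 4 clusters. Cluster 0 was led by Lyve1, Fcna and Cd209f, cluster 1 by Cd163 and Vcam1 beside Retnla, cluster 5 by the cytokine genes Ccl12, Il1b and Cxcl2 together with Cx3cr1, and cluster 19 by interferon-induced genes such as Ifit3. Retnla stood at 12200 CPM in NW and 8050 CPM in ABX in cluster 0, at 11800 and 7270 CPM in cluster 1, at 10500 and 6510 CPM in cluster 19, and at 3340 and 1740 CPM in cluster 5. The cytokine-rich cluster 5 had the lowest Retnla of the 4 in both libraries. It also had the highest sum of dissociation stress genes, 36400 and 35800 CPM, against 19400 to 22700 CPM in the other 3 clusters; their part in its Retnla level was not tested.

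Within each cluster Retnla was lower in ABX, with log2 ratios of −0.60, −0.69, −0.94 and −0.69 in clusters 0, 1, 5 and 19. Cluster 0 made up 50.6% of macrophage-like cells in NW and 43.7% in ABX, and cluster 5 11.4% and 16.0%, so the makeup differed as well. Mrc1 showed another order: it was highest in cluster 5, at 2200 CPM in NW and 2080 CPM in ABX, and lowest in cluster 1, at 1650 and 1440 CPM. Pltp was lowest in cluster 5, at 1510 and 1120 CPM, against 2750 and 2070 CPM in cluster 0, and its log2 ratio was −0.41, −0.43, −0.43 and −0.69 in clusters 0, 1, 5 and 19. Of the 463 Ear2 UMIs of cluster 1 in NW, 148 came from the single cell named above, and cluster 0, with 101 and 45 Ear2 UMIs, had a log2 ratio of −0.33 (−0.87 to 0.19).

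**Figure D5:**
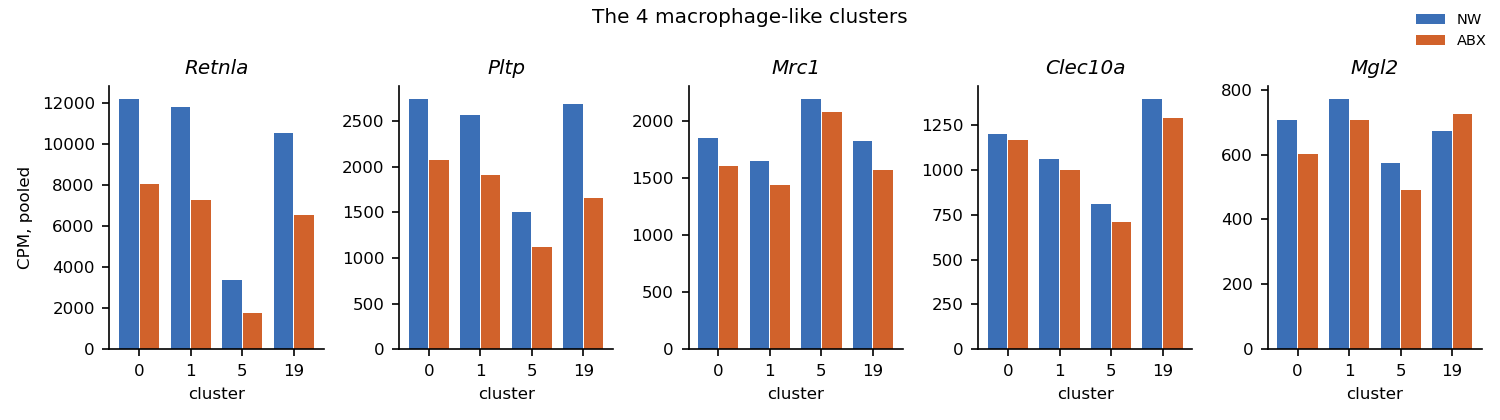
Pooled CPM (bars from 0) of 5 genes in the macrophage-like clusters 0, 1, 5 and 19, NW and ABX side by side, 1 library each and no replicate error. Retnla and Pltp are lowest in the cytokine-rich cluster 5, where Mrc1 is highest; Mgl2 in cluster 19 is the only pair of bars in which ABX is higher.

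In ILC2-like cells Arg1 was the one gene of the 8 well above the free RNA level. It stood at 747 CPM in NW and 689 CPM in ABX, against 2.26 and 3.01 CPM in B-like cells, a log2 ratio of −0.12 (−0.19 to −0.04). Arg1 UMIs were found in 76.6% (73.4 to 79.6) of the NW and 73.8% (71.3 to 76.2) of the ABX ILC2-like cells, and in 44.8% and 44.2% after thinning to 1000 UMIs. The signal was spread widely: without the 10 richest cells 2258 of the 2468 NW and 2942 of the 3087 ABX UMIs remained, where in macrophage-like cells 157 of 572 did in NW. The Arg1 CPM of ILC2-like cells was thus close in the libraries, while UMIs per cell, at unequal depth, were 3.28 in NW and 2.48 in ABX. ILC2-like cells were 6.03% of NW and 9.78% of ABX cells.

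The other 7 genes in ILC2-like cells were near the B-like level. Retnla stood at 840 and 444 CPM, or 442 and 191 CPM without the richest 1% of cells, Mrc1 at 144 and 75.5 CPM, and Pltp at 207 and 115 CPM. Their proportions were close to those of macrophages: per Pltp UMI, ILC2-like cells had 4.06 Retnla UMIs in NW and 3.87 in ABX, B-like cells 3.33 and 3.21, and macrophage-like cells 4.34 and 3.62. For Arg1 the same figure was 3.61 and 6.01 in ILC2-like cells and 0.00625 and 0.00418 in macrophage-like cells. At least 1.5-fold lower in ABX were 4 of the 6 genes with 200 UMIs (Retnla, Mrc1, Clec10a and Pltp), with log2 ratios of −0.92, −0.93, −0.62 and −0.85. In B-like cells the same 4 had −0.79, −0.51, −0.13 (−0.39 to 0.14) and −0.74, so Retnla and Pltp were past 1.5-fold there too and Mrc1 and Clec10a were not. Of 5988 genes in ILC2-like cells, 2.52% were that much lower and 0.818% higher. With the CPM of B-like cells subtracted the count in ILC2-like cells was 0, since each of the 4 was at or below the B-like level in at least 1 library and gave no ratio.

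In DC the 2 CD301 genes stood out in cDC2-like cells. Clec10a stood there at 573 CPM in NW and 492 CPM in ABX, and Mgl2 at 541 and 420 CPM, against 56.8 and 42.8 CPM for Clec10a and 46.0 and 30.3 CPM for Mgl2 in cDC1-like cells, which is below the B-like level. Per Pltp UMI, cDC2-like cells had 2.65 and 3.86 Clec10a UMIs, against 0.436 and 0.560 in macrophage-like cells, so these transcripts were not in the proportion of free macrophage RNA. The log2 ratios in cDC2-like cells were −0.22 (−0.34 to −0.10) for Clec10a and −0.37 (−0.50 to −0.24) for Mgl2. Clec10a UMIs were found in 74.3% and 62.6% of cDC2-like cells, and in 39.2% and 34.3% after thinning to 1000 UMIs. Mgl2 UMIs were found in 47.7% and 34.5%, and in 25.5% and 18.7% after thinning.

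Ear2 was also present in DC. In cDC1-like cells it stood at 21.7 CPM in NW and 21.0 CPM in ABX, with a log2 ratio of −0.05 (−0.36 to 0.26), against 2.82 and 2.77 CPM in B-like cells. In cDC2-like cells Ear2 stood at 26.5 and 11.6 CPM, with a log2 ratio of −1.20 from 66 and 20 UMIs. Retnla in DC-like cells, at 511 and 202 CPM, lay below the B-like level. This held without the richest 1% of cells too (411 and 172 against 425 and 243 CPM). Per cell it was slightly above the B-like value in NW, at 4.31 against 4.18 UMIs, and below it in ABX, at 1.56 against 2.20. Mature DC-like cells alone stood at 897 CPM in NW and 332 CPM in ABX, against 826 and 476 CPM in B-like cells. At least 1.5-fold lower in ABX were 2 of the 6 genes with 200 UMIs in DC-like cells (Retnla and Pltp), where 1.42% of 8395 genes were lower and 0.750% higher. Both were below the B-like level, so neither gave a ratio with the B-like CPM subtracted.

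In the monocyte-like cluster Arg1 stood at 213 CPM in NW and 31.9 CPM in ABX, a log2 ratio of −2.74 (−3.09 to −2.40). The direction turned when cells were gated on marker genes (60 NW and 86 ABX cells), to 1.26. Chil3 stood at 182 and 151 CPM and Ear2 at 189 and 142 CPM, with log2 ratios of −0.27 (−0.45 to −0.09) and −0.41 (−0.59 to −0.23). Of the 8 genes, 3 (Retnla, Arg1 and Mrc1) were at least 1.5-fold lower in ABX, and of 5335 genes in this cluster 5.25% were lower and 2.83% higher. Retnla came within the limit, at −0.51, both with the mean of per-cell CPM and after thinning. Summed macrophage markers were 11700 CPM in NW and 8200 CPM in ABX in this cluster, stress genes 15400 and 12000 CPM, hemoglobin genes 0.910 and 333 CPM, median depth 2470 and 1690 UMIs and the median mitochondrial share 12.7% and 14.6%; their part in the ratios was not tested.

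At the finer resolution 623 NW and 570 ABX cells, the largest part of the monocyte-like cluster, fell into a cluster of low depth (medians of 1960 and 1520 UMIs over all its cells) that met 5 cDC2 markers but had monocyte genes among its leading genes, and was left unnamed. In these cells Retnla stood at 3380 CPM in NW and 2490 CPM in ABX, a log2 ratio of −0.44 (−0.49 to −0.39), and Arg1 at 81.7 and 16.6 CPM, with −2.30 (−2.93 to −1.73). Mrc1 stood at 498 and 304 CPM, with −0.71 (−0.86 to −0.56), and Clec10a at 455 and 534 CPM, with 0.23 (0.10 to 0.36). Chil3 had 24 and 23 UMIs in them, so most of the Chil3 lay elsewhere.

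It also set apart 129 cells, 69 of NW and 60 of ABX, which met 12 of the 13 monocyte markers and had Chil3 and Ace as leading genes. Ace, known from patrolling monocytes, was found in 38.8% of them. Chil3 stood there at 938 CPM in NW and 1210 CPM in ABX, a log2 ratio of 0.37 (0.14 to 0.60), and Ear2 at 489 and 413 CPM, with −0.24 (−0.60 to 0.11). Arg1 had 0 UMIs in the 69 NW cells, where the exact binomial interval reaches 5.21% of cells with a UMI, and 4 in ABX. Without the 10 cells richest in Chil3, 63 NW and 6 ABX UMIs remained, so the direction of the Chil3 ratio rested on those cells. Chil3 UMIs were found in 33.3% (22.4 to 45.7) and 21.7% (12.1 to 34.2) of these cells, so this lectin was carried by a minority of them.

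Another finer cluster had Gpnmb, Atp6v0d2 and Lpl as leading genes, known from lipid-laden macrophages, and C1qa in 93.0% of its cells (398 in NW, 260 in ABX). Only 149 of its NW and 50 of its ABX cells were monocyte-like, and these held 719 of its 721 and 45 of its 48 Arg1 UMIs. It was left unnamed because macrophage and monocyte genes were mixed among its leading genes. Over the whole cluster Arg1 stood at 288 CPM in NW and 38.2 CPM in ABX, a log2 ratio of −2.91 (−3.37 to −2.49), and Retnla at 4400 and 1780 CPM, with −1.31 (−1.37 to −1.24). Mrc1 and Clec10a were on the other side, at 1120 and 1380 CPM and at 546 and 666 CPM, with log2 ratios of 0.30 (0.22 to 0.39) and 0.29 (0.16 to 0.41). Most of the Arg1 UMIs lay in a few rich cells: 13 NW cells and 1 ABX cell had 10 or more. Without the 10 richest 91 of the 721 NW UMIs remained. Only 7 ABX cells had an Arg1 UMI, so 0 of the 48 ABX UMIs had to remain and no ratio could be taken.

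Cells with 10 or more UMIs of a scarce gene show the same in whole counts. For Arg1 there were 81 in NW and 47 in ABX, of which 51 and 39 were ILC2-like, 19 and 2 monocyte-like, and 7 and 1 macrophage-like. For Chil3 there were 19 and 10, of which 15 and 7 were monocyte-like. For Ear2 there were 36 and 7, of which 21 and 6 were monocyte-like and 9 and 0 macrophage-like. A small unnamed cluster with peritoneal macrophage genes, 15 NW and 17 ABX cells, held 250 and 55 Arg1 UMIs and 6 and 98 Chil3 UMIs. A single ABX cell held 95 of these 98 Chil3 UMIs. Few cells were rich in Arg1 outside the macrophage-, monocyte-, DC-, ILC2- and neutrophil-like classes: 4 in NW and 5 in ABX had 10 or more UMIs. A single one of these 4 NW cells held 235 Arg1 UMIs. Shares of cells over this count also move with depth, which was lower in ABX.

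Patterns over the 25 clusters with at least 50 cells, with both libraries pooled, grouped the genes the same way, as a description over clusters that share 2 libraries and free RNA. On log2(CPM + 1), Mrc1 and Pltp had a Pearson correlation of 0.98, Clec10a and Mgl2 of 0.97, and Mrc1 and Retnla of 0.91, while Arg1 had 0.14 with Retnla and 0.19 with Mrc1. Ear2 and Chil3 had 0.59 with each other, and Ear2 had −0.03 with Mrc1. Of 10878 genes searched, the nearest to Retnla was Ms4a8a (0.962), to Mrc1 Apoe (0.983), to Pltp Ctsb (0.987), to Clec10a and Mgl2 Clec4a1 (0.966 and 0.956), to Arg1 Rnf128 (0.789), to Chil3 Ptgs2 (0.810) and to Ear2 Gpr141 (0.777).

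From cell to cell within macrophages the genes were less closely linked. Over macrophage-like cells the Spearman correlation of CPM between Retnla and Pltp was 0.43 in NW and 0.39 in ABX, and between Retnla and Clec10a 0.31 and 0.35, while Retnla and Mrc1 had 0.04 and 0.03. Cells of 1 library share depth and free RNA, and weak values in sparse counts carry no finding. UMIs of at least 5 of the 8 genes were found together in 65.8% of macrophage-like cells in NW and 42.8% in ABX, at unequal depth.

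The wider IL-4 pathway in macrophage-like cells was read from fixed lists, against the 1.12% of genes lower and 2.86% higher given above. Of 12 receptor and signalling genes with 200 UMIs, 0 were lower and 1 higher: Socs1, an inhibitor of cytokine signalling, at 3.46 CPM in NW and 6.03 CPM in ABX (0.80). Stat6 itself stood at 135 and 134 CPM, a log2 ratio of −0.02 (−0.08 to 0.05). Of 13 transcription regulators, 2 were lower, Bhlhe40 at 9.12 and 4.93 CPM (−0.89) and Egr2 at 25.9 and 15.7 CPM (−0.72), and 0 higher. The signalling list had a median log2 ratio of 0.03 and the regulators of 0.02.

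Of 20 other IL-4 target genes, 5 were lower, 2 were higher and 13 stayed within 1.5-fold, with a median log2 ratio of −0.29. The macrophage elastase Mmp12 stood at 13.6 CPM in NW and 1.14 CPM in ABX (−3.57), and the lipoxygenase Alox15 at 6.64 and 1.01 CPM (−2.71). Single NW cells held 158 of the 486 Mmp12 UMIs and 121 of the 238 Alox15 UMIs. The fatty acid binding protein Fabp4 was higher in ABX, at 69.8 and 126 CPM (0.85), but it is also the leading gene of the endothelial-like cluster (327 NW and 490 ABX cells) and differed alike in ILC2-like (0.84) and DC-like cells (0.78); the part of endothelial RNA was not tested. Also higher was the signalling inhibitor Socs2, at 13.8 and 22.0 CPM (0.67). Of 5 sequence relatives of the 8 genes with 200 UMIs, 1 was lower, the Ear2 relative Rnase2a with 896 and 185 UMIs (−1.62). Without the 10 richest cells 706 and 136 Rnase2a UMIs remained.

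Of 15 scavenger and lectin genes of resident macrophages, 6 were lower and 1 higher, with a median log2 ratio of −0.44. Cd209f stood at 773 and 339 CPM (−1.19) and Cd209g at 191 and 96.5 CPM (−0.98), both C-type lectins, and Clec4n at 49.9 and 84.4 CPM (0.76). Of 15 classical activation genes, 1 was lower and 3 were higher, with a median of 0.34. The chemokine Cxcl9 was higher in ABX by 1.36 on the log2 scale (1.07 to 1.66), the cytokine Il1a had 168 and 228 UMIs, with a log2 interval of 0.80 to 1.39, and Saa3, an acute-phase protein, stood at 5.36 and 0.484 CPM (−3.47), 64 of its 192 NW UMIs in 1 cell. Peritoneal macrophage markers summed to 33.3 and 17.2 CPM in macrophage-like cells, and their part in Saa3 and Alox15, which led the small cluster with peritoneal macrophage genes, was not tested.

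Neither of the metabolic lists had a gene past 1.5-fold. Of 8 arginine and polyamine genes with 200 UMIs, 0 were lower and 0 higher, from the transporter Slc7a2 at −0.50 to the polyamine acetyltransferase Sat1 at 0.13. Of 11 lipid genes that the liver X receptors and PPARs are known to regulate together with Pltp, 0 were lower and 0 higher, from Lpl at −0.34 to Mylip at 0.42. Of 16 dissociation stress genes 1 was lower, Egr1 at 1270 and 811 CPM (−0.64), and the summed list stood at 23800 and 22900 CPM.

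The inducing cytokines were sparse. In macrophage-like cells, of 7 ligand and alarmin genes only Tslp reached 200 UMIs, at 66.4 and 46.7 CPM (−0.51). In ILC2-like cells Il5 stood at 65.4 CPM in NW and 16.8 CPM in ABX (−1.96, −2.36 to −1.58) and Csf2 at 163 and 87.6 CPM (−0.90), both of the 2 tested and both lower. Il13 had 80 UMIs in NW and 7 in ABX, 57 of the 80 in 1 cell, and Il4 had 15 and 20. Of 16 stress genes in ILC2-like cells, 6 were lower and 0 higher in ABX, where 2.52% of all 5988 genes were lower and 0.818% higher. The stress genes did not move as 1 set: they ran from Atf3 at −1.49 to Hspa1b at 0.39, with a median of −0.42. Their part in the Il5 and Csf2 ratios was not tested.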

How the data were processed

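The deposited files hold UMI counts per cell and gene, which the authors obtained on mm10 from the pipeline of the BD Rhapsody supplier; the RSEC-corrected counts were used as deposited, with the 8 antibody counts for clustering. The submitters' processing notes name R 3.6.0 and Seurat 3.0.1. Barcodes below 500 gene UMIs or 200 genes, or above 25% mitochondrial UMIs, were left out. Clustering used Seurat 5.3.0 in R 4.3.3 on 2000 variable genes without the 8 genes, 30 principal components and the antibodies. It used weighted nearest neighbours at resolution 0.6, with no integration. A name required at least 3 markers of a class. Clusters with under 20 cells, or led by proliferation or peritoneal macrophage genes, stayed unnamed. So did clusters with more leading genes of another class, or of low depth with no own marker leading. The 8 antibodies named in the study's methods served to cluster only, and any other antibody column was left out.

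UMIs were summed per class and library and scaled to CPM. Ratios have exact intervals of a ratio of Poisson rates and shares exact binomial ones, at 95%, from scipy 1.17.1; PCR copies are removed by UMIs, and the intervals leave out variation between mice. With 1 library per group no test was made, and 1.5-fold with 200 UMIs over both libraries marks a difference. The interval was checked on simulated Poisson counts only, so the check does not cover UMIs concentrated in few cells. Doublet removal is not described in the sources used here, and predicted doublets were kept and left out only as an alternative. All 8 genes are named, with their nearest gene of the top 3 by correlation among genes with at least 500 UMIs, and the highest and lowest 2 ratios of each list at most, except the cytokine genes of ILC2-like cells, named after their values were seen. The genes and lists were chosen with earlier results of these data known. The alternatives were 10 planned and 4 chosen after seeing the data.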

Additional observations from a re-analysis of the deposited data

Results flagged for a closer look

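Barcodes below the cell limits entered no comparison, and still held Retnla. The 5188 such NW barcodes, with a median of 599.5 UMIs, had Retnla at 3180 CPM, and the 5061 ABX barcodes, with a median of 515 UMIs, at 1880 CPM, both above the 826 and 476 CPM of B-like cells of the same libraries. Retnla UMIs were found in 54.9% of the NW and 33.9% of the ABX barcodes left out. Whether these were broken cells or free RNA was not tested. Groups of 1 library allow no check for samples that stand apart.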

How the results depend on the processing

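No paired analysis was possible because each condition is 1 library. In macrophage-like cells, 4 of the 8 genes were past 1.5-fold under all 10 alternatives listed at the outset, without shared barcodes and without the cells of highest doublet score. They were 2 without the 10 richest cells of each gene, and 2 with B-like CPM subtracted after the richest 1% of cells of each gene was left out in every class, an alternative that, like the 3 before it, was chosen after seeing the data. Retnla ranged from −0.79 to −0.66 over the alternatives in these cells, Arg1 from −1.53 to −0.01 and Ear2 from −3.13 to −0.87. Chil3 ranged from −5.55 to −1.74 and had no value without its 10 richest cells, nor with the richest 1% left out. Only 9 ABX cells had a Chil3 UMI, so both of these left 0 ABX UMIs in any case. Other counts moved as follows. In DC-like cells the 2 became 4 with cells gated one by one on marker genes, 0 with B-like CPM subtracted, with or without the richest 1%, and 4 without the 10 richest cells. In ILC2-like cells the 4 became 0 with Scrublet's doublets left out and 0 with B-like CPM subtracted, with or without the richest 1%. In monocyte-like cells the 3 became 1 with the mean of per-cell CPM. They also became 1 after thinning to 1000 UMIs, which repeats that mean on cells of at least 1000 UMIs. The 3 became 5 without the 10 richest cells and 5 with B-like CPM subtracted without the richest 1%. After subtraction a gene at or below the B-like level gave no ratio and could not be counted. Scrublet's own threshold marked 2.76% of NW but 0.00786% of ABX cells, so it did not work in ABX and that alternative removes doublets from NW alone. Left out equally, as the 5% of cells with the highest score in each library, no count moved by more than 1.5 times. The Retnla ratio in ILC2-like cells moved furthest there, from −0.92 to −1.66. The number of genes highest in macrophage-like cells was 4 or 5 under all. The sign of a ratio past 1.5-fold turned at 2 places: Arg1 in monocyte-like cells was 1.26 with cells gated on marker genes (60 NW and 86 ABX cells), and Clec10a in ILC2-like cells 0.27 with Scrublet's doublets left out. A further 7 ratios of under 1.5-fold changed sign, all in monocyte-like cells: Chil3 (−0.27) ranged up to 0.52, Clec10a (0.23) down to −1.67 and Mgl2 (0.29) down to −1.28. Apart from the 2 turned ratios past 1.5-fold, 112 of 373 ratios under the alternatives moved outside the counting interval of the reported value. Causes were not tested. Depth limits Arg1, Chil3 and Ear2 in macrophage-like cells, where a median cell has 0 UMIs of each.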
